A study of Mus musculus with 12 samples.

Results

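AP-1 transcription factor genes were followed in common lymphoid progenitors (CLPs), the bone marrow cells that give rise to B, T, and NK cells. The genes are Fos, Fosb, Fosl2, Jun, Junb, Jund, Atf3, and Batf, 8 of the 47643 genes in the deposited table. They were selected by symbol with their expression in all 12 libraries, in TPM (reads per gene length, scaled to a common total in each library), already known, so their levels and differences are given as a description and carry no p-value. Of the 8 genes, 7 reached a mean of at least 1 TPM over the libraries and entered the fit across 14479 genes, and Atf3 did not.

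AP-1 is a dimer of basic leucine zipper proteins. Fos proteins pair with Jun proteins, Jun proteins also pair with each other, and Batf and Atf3 form dimers with Jun proteins in place of Fos. Fos, Fosb, Jun, Junb, and Atf3 are classic immediate early genes, whose transcripts appear quickly after growth factors, cytokines, or stress and are short-lived, and Fosl2 and Jund are usually expressed more steadily. In lymphoid and myeloid cells these factors take part in activation, cytokine transcription, and differentiation.

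The series asks which genes in CLPs respond to loss of the long noncoding RNA Firre and to its return from a transgene. Poly(A)+ RNA was sequenced from CLPs sorted from bone marrow of adult, age-matched male mice, 4 libraries a group and 1 mouse a library. WT mice carry an intact Firre locus. ∆Firre mice, labelled KO, lack the whole locus in the germline, after CMV-Cre deletion of a floxed allele and backcrossing to C57BL/6J. Rescue mice carry the same deletion, a Firre cDNA transgene under a Tet-responsive element, and an rtTA driven by a CAG promoter, and ate doxycycline chow. The transgene is switched on throughout the body, so rescue CLPs developed in a host in which other cells expressed it too, and rescue differed from ∆Firre in transgene, rtTA, and diet together. Firre itself was at 28.4 ± 3.05 TPM (SD, n = 4) in WT, at 0 in each ∆Firre library, and at 108 ± 56.1 TPM (SD, n = 4) in rescue.

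Recovered reads came to at least 10800987 in the shallowest WT library and at least 32009555 in the deepest rescue library, and each rescue library was deeper than each WT and ∆Firre library. By their labels, the rescue libraries carry a range of library numbers apart from all WT and ∆Firre libraries, so any effect of the time or run of library making cannot be told apart from the rescue genotype and diet. The CLP markers Il7r, Flt3, and Kit were expressed in all 12 libraries, and the summed level of 14 CLP markers ranged from 7295 to 10081 TPM in WT, 8389 to 8830 in ∆Firre, and 9875 to 10806 in rescue, most of it Dntt. Of the 14, 4 were higher in rescue against ∆Firre (Rag1, Ebf1, Ly6d, and Tcf3) and 3 lower (Kit, Ccr9, and Lmo2), with Kit and Ccr9 losing their calls under the GC correction. Markers of other cells were also present and differed between groups. The summed TPM of 11 basophil and mast cell markers was 1093 to 9268 in WT, 2980 to 4392 in ∆Firre, and 83.8 to 151 in rescue, with Cma1 at 0 throughout, and 8 of the 9 tested were lower in rescue against either other group. The sum of 9 B cell markers was 251 to 466, 327 to 416, and 910 to 1420 TPM in the same order, with 7 of 9 higher and Ms4a1 lower in rescue. Antibody-secreting cell markers summed to 837 to 1556, 1580 to 3375, and 226 to 375 TPM, mostly Igj in ∆Firre, with Sdc1 on this list higher in rescue against ∆Firre, and T, NK, and ILC markers to 582 to 1119, 716 to 1137, and 418 to 495. Neutrophil and monocyte markers (379 to 2150 TPM over all libraries), eosinophil markers (7.40 to 225), and erythroid and platelet markers (36.3 to 253) had sums that overlapped between the groups. Single genes of these lists were called lower in rescue against ∆Firre, 4 of 14, 2 of 9, and 2 of 9 tested, beside 19.3% of all genes, among them Itgam, Ctsg, and the platelet genes Ppbp and Itga2b. Beside all these marker counts, 8.58% of all genes were called higher and 19.3% lower against ∆Firre, and 4.82% and 19.4% against WT. In bulk samples, fewer cells of a type and less RNA per cell cannot be told apart.

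The stretch of DNA just before each gene was read first, since Fos, Jun, and Junb are textbook examples of genes with cyclic AMP response or AP-1-like elements close to their start. The 150 bases before the annotated start come from the RefSeq promoter table for mouse (GRCm38.p6), which holds all 8 genes. They are shown 5′ to 3′ along each gene, for the 3 genes that held both such an element and a TATA or CCAAT box. Fos lies on chromosome 12 (chr12:85473740-85473889, + strand), Jun on chromosome 4 (chr4:95052223-95052372, - strand), and Junb on chromosome 8 (chr8:84978749-84978898, - strand). Capitals mark matches to short strings searched on both strands. TGACG is the core of a cyclic AMP response element, found in Fos and Junb. The AP-1-like element of the Jun promoter is TGACATCA. A TATA box was searched as TATAAA, which only Fos holds here. A CCAAT box, in Jun and Junb, was searched by its name.
Fos: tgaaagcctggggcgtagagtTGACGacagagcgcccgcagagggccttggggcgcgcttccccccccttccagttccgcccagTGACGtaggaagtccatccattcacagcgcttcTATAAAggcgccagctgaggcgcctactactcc
Jun: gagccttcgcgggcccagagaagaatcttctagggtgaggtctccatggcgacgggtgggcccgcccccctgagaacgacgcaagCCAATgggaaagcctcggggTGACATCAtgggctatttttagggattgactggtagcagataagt
Junb: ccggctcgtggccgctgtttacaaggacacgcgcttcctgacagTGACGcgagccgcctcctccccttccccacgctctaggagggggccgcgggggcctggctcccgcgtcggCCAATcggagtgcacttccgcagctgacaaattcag
Position -1 is the base next to the start. In Fos, TGACG begins at -129 and again at -66, and TATAAA begins at -33. In Jun, CCAAT begins at -65 and TGACATCA at -45. In Junb, TGACG begins at -106 and CCAAT at -36. Among all 8 genes, 5 held TGACG on either strand (Fos, Fosb, Junb, Atf3, and Batf), against 13.3% of the 32851 promoter windows of this length. The start that the table gives for Fosb lies inside the annotated gene, and so does its TGACG. TGACATCA was found in Jun alone (2.32% of all windows), TATAAA in Fos alone (7.57%), and CCAAT in Jun and Junb (24.5%). The full element TGACGTCA, which contains TGACG (1.36% of all windows), and the AP-1 site TGANTCA (4.24%) were found in none of the 8 windows. The windows of Fosl2 and Jund held none of these 6 strings. A match of letters is not a measured binding site.

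In WT CLPs, the order of mean TPM, a level per transcript length, was Batf, Jund, Jun, Junb, Fos, Fosl2, Fosb, and Atf3. Batf was at 34.9 ± 6.73 TPM (SD, n = 4), and its lowest WT library lay above the highest Jund library. From Jund (21.0 ± 2.94) down to Fosl2 (7.46 ± 3.17), each neighbour overlapped the next. Fosl2 and Fosb did not overlap, and Fosb and Atf3 did, both near 0. In rescue the order was Jun, Fos, Junb, Jund, Batf, Fosb, Fosl2, and Atf3, and only Junb and Jund and also Batf and Fosb overlapped as neighbours. The 8 genes summed to 98.0 to 135 TPM in WT libraries, 53.3 to 137 in ∆Firre, and 491 to 709 in rescue. Batf held 28.1% to 35.5% of that sum in WT and 1.21% to 7.86% in rescue, whereas Jun held 10.4% to 23.9% in WT and 43.1% to 48.1% in rescue.

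**Figure D1:**
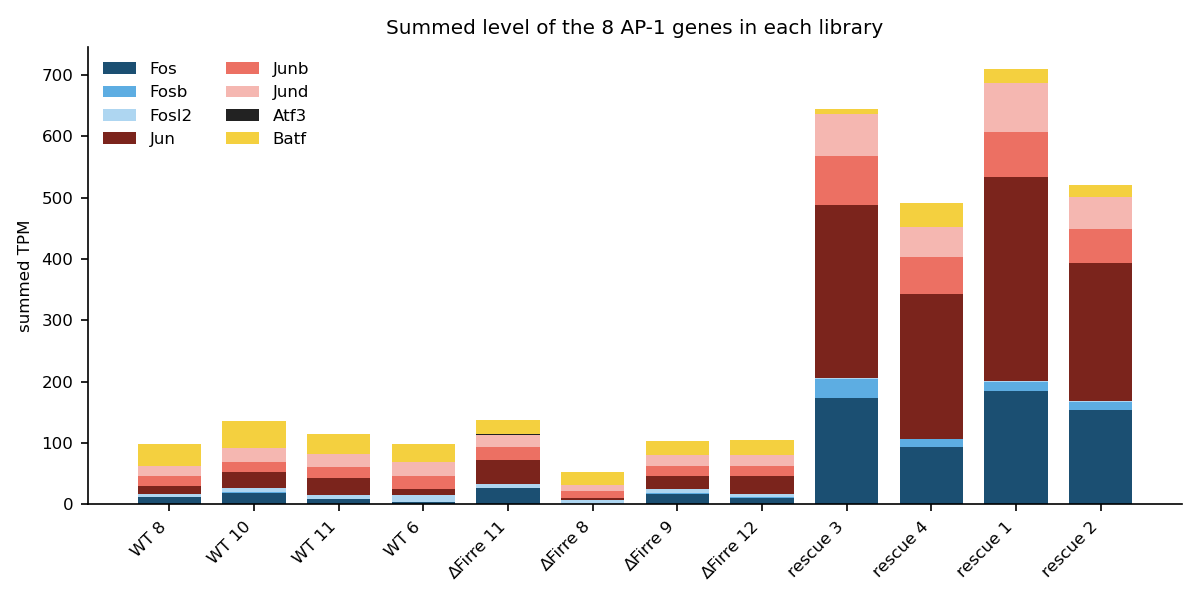
Summed TPM of the 8 AP-1 genes in each library, with 1 stacked bar a library and 1 colour a gene. Rescue libraries reach 491 to 709 TPM, mostly Jun and Fos, and WT and ∆Firre libraries 53.3 to 137.

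Fos, the partner of Jun in the best-known AP-1 dimer, was at 12.2, 19.2, 8.32, and 3.04 TPM in WT libraries 8, 10, 11, and 6. It was at 26.5, 0.523, 17.6, and 11 TPM in ∆Firre libraries 11, 8, 9, and 12. It was at 174, 94.2, 184, and 153 TPM in rescue libraries 3, 4, 1, and 2. WT and ∆Firre overlapped widely, and the lowest rescue library stood 3.56-fold above the highest ∆Firre library. The depth behind these values was 34 to 265 reads a library in WT, 6 to 316 in ∆Firre, and 2088 to 4339 in rescue. The mean was 151 ± 40.1 TPM (SD, n = 4) in rescue, 13.9 ± 10.9 in ∆Firre, and 10.7 ± 6.82 in WT, which is 10.9 times the ∆Firre mean and 14.1 times the WT mean. On the log2(TPM + 1) scale, on which all differences here are given and which understates changes of low genes, rescue minus ∆Firre was 3.91 ± 0.75 (SE) and rescue minus WT 3.88 ± 0.75. ∆Firre replicate 8, with 6 reads on Fos, weighed on the first of these, which was 3.01 without it.

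Fosb, which encodes FosB and its truncated form ∆FosB, was close to absent outside rescue. Its TPM was 0, 0.246, 0, and 0.0674 in WT libraries 8, 10, 11, and 6, which rests on 11 reads in all. A count of 0 reads allows up to 0.136 TPM in WT replicate 8 and 0.104 in WT replicate 11 (3 reads a library, counting error only). The ∆Firre libraries 11, 8, 9, and 12 were at 0.789, 0.131, 0.801, and 0.315 TPM, and overlapped with WT. Rescue libraries 3, 4, 1, and 2 were at 29.5, 11.5, 15.8, and 14.2 TPM, from 676 to 1950 reads each. The lowest rescue library stood 14.4-fold above the highest ∆Firre library. The mean of 17.7 ± 8.05 TPM (SD, n = 4) in rescue was 34.9 times that of ∆Firre (0.509 ± 0.339) and 226 times that of WT (0.0784 ± 0.116). The WT ratio rests on its 11 reads, 9 of them in WT replicate 10, so its size depends on that library. The log2 difference was 3.58 ± 0.34 (SE) against ∆Firre and 4.04 ± 0.34 against WT with a pseudocount of 1. For so low a gene the pseudocount set the size, and the difference against WT was 6.75 with a pseudocount of 0.1 and 2.1 with 5.

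Fosl2, which encodes Fra-2, went the other way. It was at 4.85, 6.37, 6.54, and 12.1 TPM in WT libraries 8, 10, 11, and 6. It was at 5.94, 6.63, 6.18, and 4.98 TPM in ∆Firre libraries 11, 8, 9, and 12, and at 2.45, 1.22, 1.77, and 1.76 in rescue libraries 3, 4, 1, and 2. Each rescue library lay below each WT and ∆Firre library, and WT replicate 6 stood above the rest. The rescue mean of 1.80 ± 0.505 TPM (SD, n = 4) was 0.304 times the ∆Firre mean and 0.241 times the WT mean, and the log2 differences were -1.32 ± 0.27 (SE) and -1.54 ± 0.27. Within WT and within ∆Firre, Fosl2 took the same order as the summed basophil and mast cell markers described above. Within rescue it did not. Rescue replicate 3 had the most Fosl2 (2.45 TPM, marker sum 114) and replicate 2 the highest sum (151, Fosl2 at 1.76). WT replicate 6 had the highest value of both (12.1 TPM for Fosl2, 9268 for the marker sum) and rescue replicate 4 the lowest of both (1.22 and 83.8). After each group's mean was subtracted, Cpa3, a mast cell and basophil protease on that marker list, was among the 5 genes closest to Fosl2 across the 12 libraries (Pearson r = 0.94), with Il1rap, Jak2, Sytl3, and Btnl9. The part of these cells in the Fosl2 level was not tested.

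**Figure D2:**
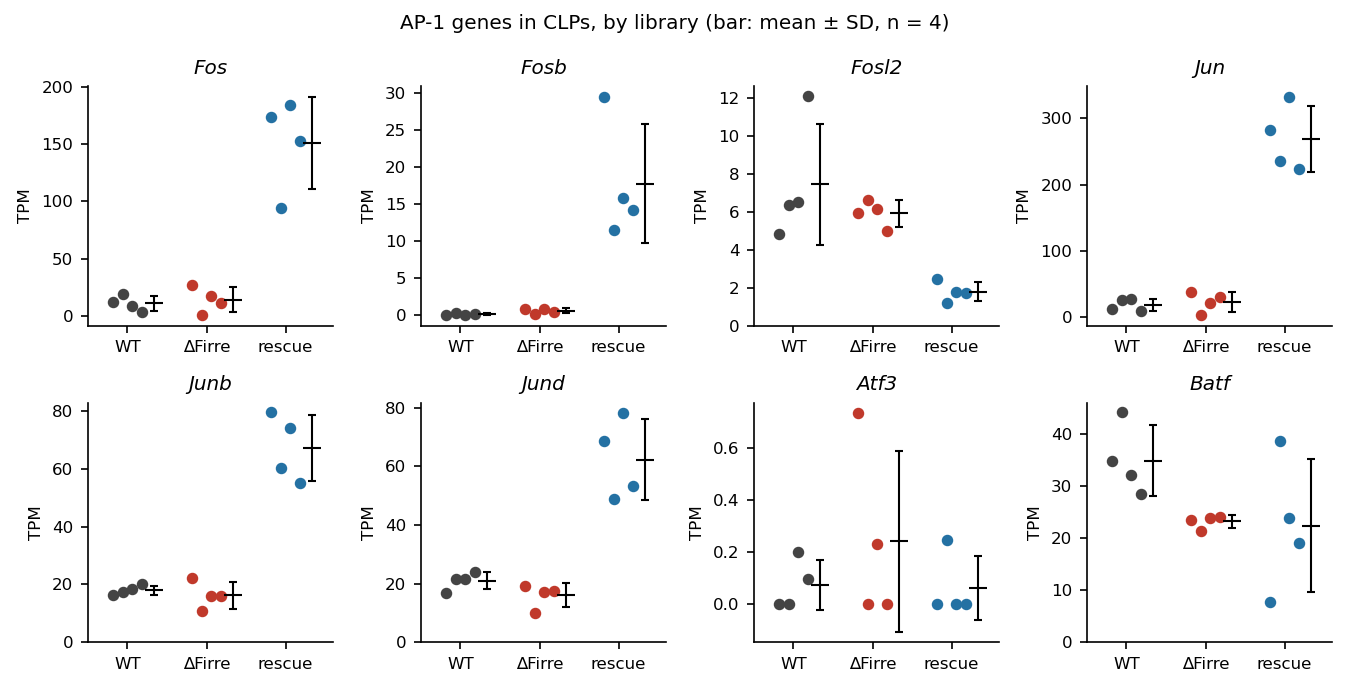
TPM of each AP-1 gene in each library of WT, ∆Firre, and rescue CLPs, with a linear axis of its own for each gene and the mean ± SD (n = 4) beside the points. Fos, Fosb, Jun, Junb, and Jund are higher and Fosl2 is lower in each rescue library, and Atf3 stays under 1 TPM.

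Jun, the founding Jun family member and a target of JNK phosphorylation, was the most abundant of the 8 genes in rescue. It was at 12.8, 26.3, 27.3, and 10.2 TPM in WT libraries 8, 10, 11, and 6, and at 38.2, 3.67, 21.9, and 30.5 in ∆Firre libraries 11, 8, 9, and 12. Rescue libraries 3, 4, 1, and 2 were at 282, 236, 332, and 224 TPM, from 7085 to 9668 reads each. The lowest rescue library was 5.88-fold above the highest ∆Firre library, and WT and ∆Firre overlapped. The mean of 269 ± 49.0 TPM (SD, n = 4) was 11.4 times that of ∆Firre (23.6 ± 14.8) and 14 times that of WT (19.2 ± 8.90). The log2 difference was 3.80 ± 0.55 (SE) against ∆Firre, 3.13 without ∆Firre replicate 8, and 3.84 ± 0.55 against WT.

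Junb and Jund, which make weaker activators than Jun on many promoters, changed by less than Jun and varied less than Jun within WT and within ∆Firre. Junb was at 16.4, 17.4, 18.4, and 20 TPM in WT libraries 8, 10, 11, and 6. It was at 22.3, 10.9, 16.1, and 16.1 in ∆Firre libraries 11, 8, 9, and 12, and at 79.4, 60.1, 74.0, and 55.1 in rescue libraries 3, 4, 1, and 2. The rescue libraries lay apart from all others. Mean Junb was 67.2 ± 11.4 TPM (SD, n = 4) in rescue, 4.11 times the ∆Firre mean and 3.72 times the WT mean, and the log2 differences were 2.0 ± 0.19 (SE) and 1.83 ± 0.19. Jund was at 17.0, 21.6, 21.5, and 24.0 TPM in WT libraries 8, 10, 11, and 6. It was at 19.4, 10.1, 17.1, and 17.7 TPM in ∆Firre libraries 11, 8, 9, and 12, and at 68.8, 48.8, 78.4, and 53.4 in rescue libraries 3, 4, 1, and 2. Here too the rescue libraries stood apart. Mean Jund was 62.4 ± 13.7 TPM (SD, n = 4) in rescue, 3.88 times the ∆Firre mean and 2.97 times the WT mean, with log2 differences of 1.90 ± 0.21 (SE) and 1.51 ± 0.21. Exons of Junb and Jund hold 62.6% and 62.7% GC, more than 99.0% of the genes tested, whose median is 49.5%. With each library corrected for GC content, the differences against ∆Firre were 1.47 for Junb and 1.37 for Jund, against 3.73 for Jun and 4.03 for Fos.

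Atf3, a stress-induced factor, stayed at or near the floor of these libraries. Its highest value was 0.731 TPM, from 8 reads in ∆Firre replicate 11, and 7 libraries held no read of it. Of the rescue libraries, 3 of 4 held none, which allows at most 0.152 TPM in rescue replicate 1 (3 reads, counting error only). Rescue replicate 4 held 5 reads (0.246 TPM, with a floor of 0.148), and no fold is given. Batf, which lacks a transactivation domain and works with IRF4 and IRF8 in lymphocytes, was at 34.8, 44.2, 32.1, and 28.4 TPM in WT libraries 8, 10, 11, and 6. It was at 23.5, 21.3, 23.9, and 24.1 TPM in ∆Firre libraries 11, 8, 9, and 12, and at 7.82, 38.6, 23.9, and 19.1 in rescue libraries 3, 4, 1, and 2. Each ∆Firre library lay below each WT library, while the rescue libraries ranged from below the lowest ∆Firre library to within the WT range. The log2 difference was -0.55 ± 0.34 (SE) for ∆Firre minus WT, -0.24 ± 0.34 for rescue minus ∆Firre, and -0.79 ± 0.34 for rescue minus WT. The middle value rested on single rescue libraries, and was 0.16 without replicate 3 and -0.56 without replicate 4. Without rescue replicate 4, rescue minus WT was -1.11 and passed the threshold.

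**Figure D3:**
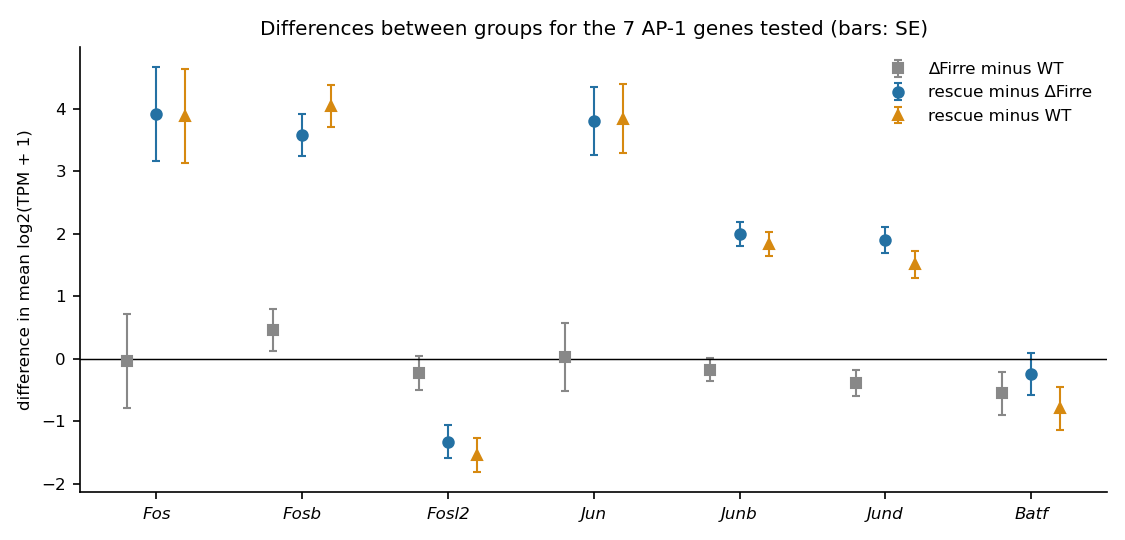
Difference in mean log2(TPM + 1) between groups for the 7 AP-1 genes tested, with bars of 1 SE from the fit. Squares for ∆Firre minus WT lie between -0.55 and 0.46, while Fos, Fosb, and Jun exceed 3.5 in both rescue comparisons and Fosl2 lies below 0.

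Loss of Firre alone moved no AP-1 gene past the threshold. In ∆Firre against WT, 0 of 7 members passed limma's threshold (adjusted p no higher than 0.1, Benjamini-Hochberg), where 0.0207% of all genes tested were called and 767 genes had an unadjusted p under 0.05. Batf was the 1 member of 8 whose libraries did not overlap between ∆Firre and WT, a state found in 5.33% of all genes tested. Limma-voom on recovered reads also called 0 members. WT and ∆Firre libraries fall into a lower range of library numbers (replicates 8 and 11 of both groups) and a higher range (WT replicates 6 and 10, ∆Firre replicates 9 and 12). The direction of Fos and Jun differed between the ranges. In the lower range ∆Firre minus WT was -0.78 for Fos and -0.55 for Jun, and in the higher range it was 0.72 and 0.62. The negative values rested on ∆Firre replicate 8 (0.523 TPM of Fos, 3.67 of Jun). In that range, ∆Firre replicate 11 exceeded both WT libraries for each gene (26.5 and 38.2 TPM). Batf was lower in both ranges (-0.56 and -0.54), as were Jund (-0.42 and -0.37) and Junb (-0.14 and -0.20). Fosb was higher in both (0.51 and 0.42) and Fosl2 turned (0.13 and -0.58), each with 2 libraries a group and no test within a range. With the GC correction, ∆Firre minus WT over both ranges together was 0.16 for Junb and -0.07 for Jund. ∆Firre replicate 8 held the lowest value of its group for Fos, Fosb, Jun, Junb, Jund, and Batf, and the highest for Fosl2. Without it, ∆Firre minus WT was 0.87 for Fos and 0.71 for Jun, and still no member was called.

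In rescue against ∆Firre, 6 of 7 members were called, 5 higher and 1 lower, where 27.9% of all genes were called, 8.58% as higher and 19.3% as lower. In rescue against WT, 6 of 7 were called in the same directions, where 24.3% of all genes were called, 4.82% as higher and 19.4% as lower. The libraries of 6 of 8 members did not overlap in either comparison, a state that 21.9% of all genes tested had against ∆Firre and 18% had against WT. Fosb reached the mean of 1 TPM that the fit asks for only through rescue, where it is high. These values chose the members and the comparisons share the rescue libraries, so the counts are a description. Among the 14479 genes ranked by log2 difference against ∆Firre, Fos took rank 9 from the top, Jun 11, Fosb 18, Junb 70, and Jund 80. The median difference of all genes was -0.16 against ∆Firre and -0.21 against WT.

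Some members also moved together within groups and others did not. With group means subtracted, Fos and Jun had a Pearson r of 0.89 across the 12 libraries, and Junb and Jund had 0.89. These values are a description of libraries that share depth and preparation. Among ∆Firre libraries, replicate 8 was lowest and replicate 11 highest in both Fos and Jun. Much of the r of Fos and Jun came from replicate 8. Batf was near 0 with Fos (0.05) and Jun (0.10) and negative with the others, and Fosl2 was negative with Fos (-0.36) and Jun (-0.29). The r of -0.69 between Fosb and Batf rested on rescue replicate 3, which was highest for Fosb and lowest for Batf. By the same measure Rbm34 (0.93) and Igkv4-70 (0.97), an immunoglobulin variable segment, were closer to Fos than Jun was. Tcf7, a T lineage factor, was the gene closest to Jun (0.94), and Irf9 the closest to Batf (0.99). Zfp36, which encodes an mRNA decay factor, was among the 5 closest to Junb (0.88). These genes are the top of all genes tested, and few libraries weigh on them. Much of the spread of Jun within groups came from ∆Firre replicate 8. Most of that of Batf came from rescue replicates 3 and 4 (7.82 and 38.6 TPM). Within rescue, the 2 libraries with less Firre (replicates 3 and 1, at 63.0 and 59.9 TPM) held more of each of Fos, Fosb, Jun, Junb, and Jund than the 2 with more Firre (replicates 4 and 2, at 174 and 135 TPM). Fosl2, which was lower in rescue, had the same order (2.45 and 1.77 against 1.22 and 1.76 TPM), and Batf did not. The order is that of TPM as deposited. Median ratio scaling divides replicate 3 by 1.034 and replicate 2 by 0.8342, and Fos and Fosb then no longer kept it. With 4 libraries this order was not tested.

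**Figure D4:**
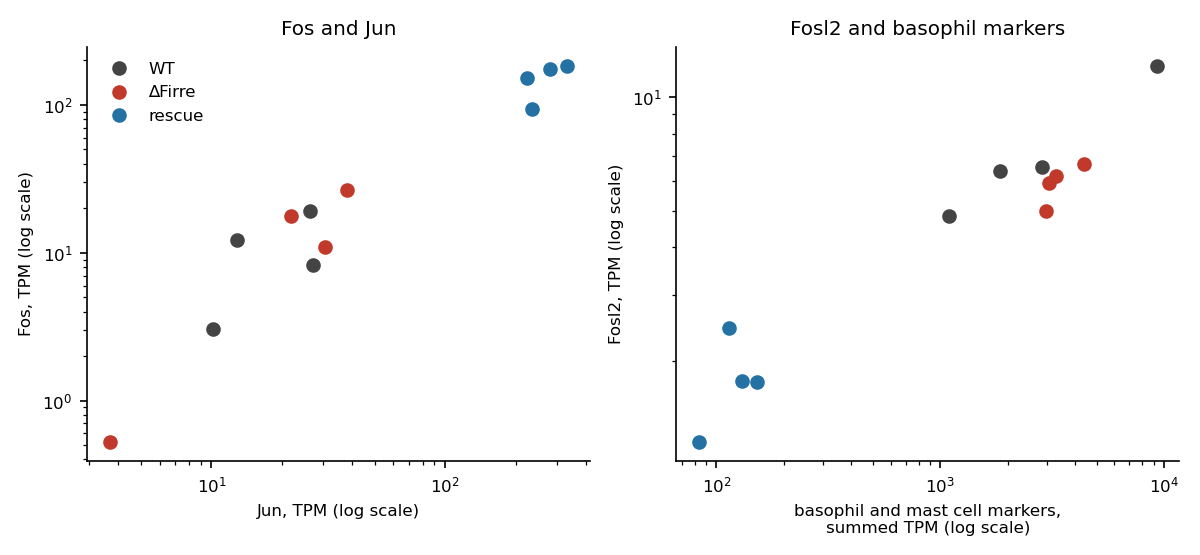
Each point is a library, on log axes: Fos against Jun TPM at left, and Fosl2 TPM against the summed TPM of 11 basophil and mast cell markers at right. Fos and Jun are lowest in the same ∆Firre library (0.523 and 3.67 TPM), and Fosl2 and the marker sum are highest in the same WT library (12.1 and 9268 TPM).

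Gene structure and position gave few shared traits. Annotated exons of Jun, Junb, and Jund merge into 1 block each, and these are known as genes without introns, whereas Fos, Fosb, Fosl2, and Atf3 have 4 blocks and Batf 3. Fos (chr12:85473890-85477274) and Batf (chr12:85686720-85709087) lie on the same strand of chromosome 12 (GRCm38.p6), 209446 bases apart. Jdp2, an AP-1 repressor, lies between them. Mean Jdp2 in WT, ∆Firre, and rescue was 16.1 ± 3.50, 15.5 ± 2.50, and 16.5 ± 2.33 TPM (SD, n = 4), and was not called (limma adjusted p = 0.76 for rescue against ∆Firre). Neighbouring Fos, Jdp2, and Batf thus had differences of 3.91, 0.09, and -0.24 against ∆Firre.

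The other genes of the pathway were taken as 6 lists, 138 of whose 155 genes were tested. In ∆Firre against WT limma called 0 of the 138, and the lowest adjusted p of any list was 0.889, although 12 had an unadjusted p under 0.05, and limma-voom on recovered reads called 0 as well. In rescue 55 were called against ∆Firre (20 higher, 35 lower) and 56 against WT (14 higher, 42 lower). Higher calls thus made up 36.4% and 25.0% of pathway calls, beside 30.7% and 19.9% of the calls among all genes. In this fit, both lean toward lower calls. No list was tested against the other genes. The median difference against ∆Firre was -0.33 for other family members, -0.13 for kinases and activators, -0.21 for inhibitors and feedback, -0.52 for targets, -0.18 for other early response genes, and 0.09 for heat shock genes, beside -0.16 for all genes. The split depended on scaling, and was 27 higher and 22 lower against ∆Firre, and 19 and 17 against WT, after median ratio scaling. The GC correction gave 24 and 17 against ∆Firre, and 16 and 14 against WT. Higher calls among all genes were 50.2% and 50.6% with median ratio scaling, and 67.4% and 55.5% with the GC correction. Genes named below as changed against ∆Firre were called in the same direction under both, except where said.

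Of the other AP-1 family and basic leucine zipper genes, 21 were tested, and 0 were called higher and 6 lower in rescue against ∆Firre, and 0 and 7 against WT, beside 19.3% and 19.4% of all genes called lower. The 0 rested on scaling, with 4 higher and 5 lower against ∆Firre after median ratio scaling, and 1 higher and 3 lower with the GC correction. Maf, a large Maf factor, had means of 12.5 ± 3.23, 13.0 ± 3.24, and 5.07 ± 1.09 TPM (SD, n = 4) in WT, ∆Firre, and rescue, a log2 difference of -1.20 against ∆Firre (limma adjusted p = 0.00615). Mafg, a small Maf, differed by -0.91 (adjusted p = 0.00271) and Nfil3, a repressor needed for NK cells, by -0.88 (adjusted p = 0.00966). Atf2, which dimerizes with Jun, differed by -0.67 (adjusted p = 0.00765) but by -0.16 with the GC correction (adjusted p = 0.493). Fosl1, which encodes Fra-1, was listed at 0 in all 12 libraries.

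Upstream kinases and activators went both ways, with 5 of 34 higher and 10 lower against ∆Firre and 2 higher and 10 lower against WT, where 27.9% and 24.3% of all genes were called in either direction. With the GC correction, 4 were higher and 0 lower against ∆Firre. Map2k2, which encodes the ERK kinase MEK2, rose from 28.5 ± 5.30 TPM in ∆Firre to 60.5 ± 7.72 in rescue (SD, n = 4; log2 difference 1.07, adjusted p = 0.000521), with WT between at 41.4 ± 3.99. Mapk7, which encodes ERK5, rose by 0.64 (adjusted p = 0.0159). The kinase gene Rps6ka3 (RSK2) differed by -0.82 (adjusted p = 0.0118) and lost its call with the GC correction (-0.41, adjusted p = 0.11).

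Among inhibitors and feedback genes, the lowest adjusted p belonged to Dusp1, a phosphatase of JNK and p38 that is itself an early response gene. Dusp1 was at 2.11 to 5.24 TPM in WT libraries, 5.63 to 9.27 in ∆Firre, and 24.9 to 32.2 in rescue, with no overlap between the 3 groups. Its log2 difference was 1.81 against ∆Firre (limma adjusted p = 0.000445) and 2.57 against WT (adjusted p = 8.95e-05). Zfp36 rose by 0.84 (adjusted p = 0.0151), and Men1, which encodes the Jund-binding protein menin, by 1.06 (adjusted p = 0.00475). Spred2, an inhibitor of Ras to ERK signaling, differed by -0.98 (adjusted p = 0.0013). In all, 3 of 19 were higher and 5 lower against ∆Firre, and 3 higher and 6 lower against WT, beside 8.58% and 19.3%, and 4.82% and 19.4%, of all genes. With the GC correction 3 were higher and 1 lower in each comparison.

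In the main fit, genes commonly given as AP-1 targets, like all genes tested (8.58% higher and 19.3% lower against ∆Firre), had more lower than higher calls. Of 27 tested, 1 was higher (Irf8, by 0.36, adjusted p = 0.0911, called in 12 of 24 other settings) and 9 lower against ∆Firre, and 0 higher and 10 lower against WT. With the GC correction the counts were 1 and 8 against ∆Firre, and 0 and 5 against WT. Of the calls among all genes, 67.4% and 55.5% were then higher. Il6 was at 9.19 to 19.3 TPM in ∆Firre and 2.23 to 62.4 in WT, where the highest value was again that of WT replicate 6, and it was listed at 0 in each rescue library. Mmp9, a matrix protease, was at 6.83 ± 2.67 TPM in ∆Firre and 1.20 ± 1.51 in rescue (SD, n = 4; adjusted p = 0.0157). Mt1, a metallothionein gene, differed by -2.01 (limma adjusted p = 0.0331). Its libraries overlapped between the groups, and its call was lost with the replicate block. Cd69, an early activation marker, was at 32.7 ± 5.98, 33.5 ± 5.07, and 29.2 ± 2.18 TPM in WT, ∆Firre, and rescue (adjusted p = 0.401 for rescue against ∆Firre). Il4 and Il6 are also products of basophils and mast cells, whose markers were lower in rescue, and the part of those cells was not tested.

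Other early response genes divided into 6 higher and 5 lower of 24 against ∆Firre, and 6 higher and 6 lower against WT, with the same shares of all genes (8.58% and 19.3%, 4.82% and 19.4%) as background. Egr1, a zinc finger factor induced together with Fos in many cells, was at 0.995 to 4.09 TPM across WT and ∆Firre libraries and at 10.7 to 22.5 in rescue (log2 difference 2.22 against ∆Firre, adjusted p = 0.00078). Ier2 rose by 1.45 (adjusted p = 0.000582) and Rhob, a small GTPase gene, by 1.44 (adjusted p = 0.000206). Klf4, also a pluripotency factor, was higher by 1.38 (limma adjusted p = 0.0367), though its libraries overlapped. The call of Klf4 held in 21 of 24 other settings and was lost with the replicate block. Klf2, a quiescence factor, rose by 1.35 (limma adjusted p = 0.00297). Klf6 fell from 48.2 ± 4.58 TPM in ∆Firre to 22.6 ± 2.80 in rescue (SD, n = 4; adjusted p = 0.00634). Heat shock genes, which respond to stress, were followed beside them. Against that background, of 13 tested 5 were higher and 0 lower against ∆Firre, and 3 higher and 3 lower against WT, where the GC correction gave 4 and 0. The higher genes Hspa1a and Hspa1b lost their calls in both comparisons with limma-voom on recovered reads. Hspa1a reached the mean of 1 TPM that the fit asks for only through rescue (0.375 TPM in WT, 0.121 in ∆Firre). Hspa1b was at 125, 24.4, 3.0, and 70.4 TPM in rescue libraries 1, 2, 3, and 4 and at 0.238 to 3.66 in ∆Firre. Hspa1a followed the same order, at 48.1, 8.13, 1.88, and 31.2 TPM. Rescue replicate 3, which had 174 TPM of Fos and the highest Fosb, had the least of both in the rescue group. Its Hspa1b lay within the ∆Firre range and its Hspa1a above it (at most 0.484 TPM in ∆Firre). Rescue replicate 1 had the most of both in the group, and also the most Fos (184 TPM) and Jun (332 TPM). How these levels relate was not tested.

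**Figure D5:**
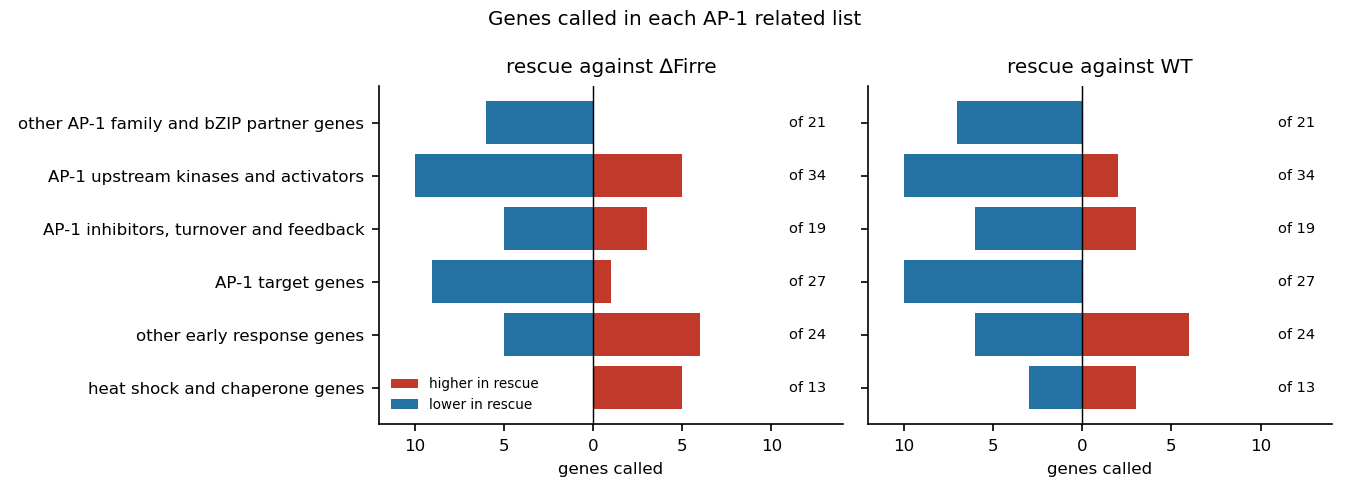
Genes called in each of 6 lists of pathway genes in rescue against ∆Firre (left) and against WT (right), with the number tested at the right of each bar. Bars to the right count genes higher in rescue and bars to the left genes lower in rescue, and each panel counts 10 of 34 kinases and activators as lower.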

How the data were processed

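Poly(A)+ RNA-seq libraries of sorted CLPs (Lin- Sca1lo cKitlo IL7Ra+) came from 4 WT, 4 ∆Firre, and 4 rescue mice. Per the submitters' processing notes, the authors trimmed reads with cutadapt, mapped them to mm10 with TopHat2 2.1.1, and counted them per gene with featureCounts. Strand and multi-mapping settings are not given in the sources used here. The deposited values are TPM, reads per gene length scaled by the authors to the same total in each library. In WT replicate 8, the shallowest library, 1 read on 1 kb is worth 0.284 TPM. Values sit at whole multiples of what 1 read is worth, and 98.2% of those above 0 came within 0.05 of a whole read. These recovered reads serve depth and an added limma-voom fit, in which 4307 genes were called in rescue against ∆Firre and 2884 against WT. Read numbers and floors cover counting error only, since PCR copies could not be told from molecules.

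The fit took log2(TPM + 1) of genes that averaged 1 TPM or more, with limma 3.58.1 (R 4.3.3; lmFit, then eBayes with a trend) and all 3 groups together. Tests were two-sided, and a gene was called where its p, adjusted by Benjamini-Hochberg, did not exceed 0.1. Count models were replaced by limma because the deposited unit is TPM. The script was tested on simulated data. The members, the lists of pathway genes and markers, and the tests were chosen with earlier results of these data known. Named genes are all members, up to 4 called genes a list with the largest difference (Fosl1, Jdp2, Irf8, Cd69, and Klf6 were added after their values were seen), and the 5 genes closest to each member. Symbols were matched for 32799 of 47643 genes through the gene name table, and positions and promoters are RefSeq, GRCm38.p6. Exon GC content came from Gencode vM1 on NCBIM37 and covered 90.4% of the genes tested. Alternatives were another pseudocount, filter, scaling, or set of samples, a replicate block, library number range, GC correction, and each library left out. The voom fit, GC correction with the block, and the fit of the genes with GC values without correction were chosen after seeing the data.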

Additional observations from a re-analysis of the deposited data

Results flagged for a closer look

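Of 24 sets of 4 libraries (8 genes in 3 groups), 1 held a library far from its group by Dixon's criterion, which chance does in about 1 in 20 sets. Atf3 in rescue replicate 4 was at 0.32 on the log2(TPM + 1) scale (0.246 TPM, 5 reads), and the other rescue libraries were at 0.00. With the others all at 0, any value above 0 would be flagged, so the rate of 1 in 20 does not apply to this set.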

How the results depend on the processing

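The call of Fos, Fosb, Jun, Junb, and Jund as higher and of Fosl2 as lower in rescue held in all 24 alternatives of each comparison, and no alternative called a member in ∆Firre against WT. The members were selected with these values known, and Fosb entered the fit only through rescue, so these calls are a description. With each library left out, 6 members were called against ∆Firre, and 6 to 7 against WT, Batf being the seventh. Pathway genes called ranged from 43 to 62 against ∆Firre (main 55) and from 39 to 64 against WT (main 56) with each library left out. The GC correction gave 30 against WT, the GC correction with the replicate block 32 against ∆Firre and 25 against WT, and median ratio scaling 36 against WT. With the replicate block alone 40 and 41 pathway genes and 6 and 6 members were called, and 2787 genes in all against ∆Firre and 2113 against WT, for 4043 and 3512 without it. WT and ∆Firre libraries with the same number did not deviate together (r = -0.03 for number 8 and -0.04 for 11), so beyond the number, and the lower range of library numbers that all 4 of them share, nothing ties them as pairs. Over all genes, higher calls made up 30.7% against ∆Firre and 19.9% against WT, 50.2% and 50.6% with median ratio scaling, 53.6% and 50.0% with quantile normalization, and 67.4% and 55.5% with the GC correction. The cause was not tested. The difference of Fosb against ∆Firre ran from 1.99 (pseudocount 5) to 5.37 (voom on recovered reads), and that of Fosl2 from -0.69 (pseudocount 5) to -1.70 (pseudocount 0.1). In ∆Firre against WT, the GC correction moved Junb from -0.17 to 0.16 and Jund from -0.39 to -0.07. Depth limits Atf3, at 8 reads or fewer, and Fosb outside rescue.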
